A study of Mus musculus with 8 samples.

Results

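Polycomb repressive complex 2 (PRC2) was followed through 10 genes in mouse embryonic stem cells (ESCs) depleted of a subunit of the HIRA complex. The genes were chosen by name, as the subunits and paralogs of the complex. The rule uses no expression value, but earlier results of these data were known when it was set. They were Ezh2 and Ezh1 (catalytic), Eed and Suz12 (core scaffold), Rbbp4 and Rbbp7 (histone-binding), Mtf2 and Phf19 (accessory, PRC2.1 form) and Jarid2 and Aebp2 (accessory, PRC2.2 form). All 10 were found among the 55418 genes of the count tables, and all 10 passed the filter on low counts in each comparison.

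PRC2 places methyl groups on lysine 27 of histone H3, and the trimethylated form marks genes that are held silent, above all regulators of development in ESCs. Ezh2 or Ezh1 carries the methyltransferase domain and needs Eed and Suz12 for activity, and Eed also binds the finished mark, which stimulates the enzyme. Mtf2 and Phf19 belong to the Polycomb-like proteins, which read methylated histone tails and bring the complex to CpG-rich DNA, whereas Jarid2 and Aebp2 form the alternative complex that responds to ubiquitinated histone H2A. PRC1, the other main Polycomb complex, places that ubiquitin.

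The study asked what the HIRA complex, the chaperone that places histone H3.3 outside DNA replication, does in ESCs. Hira, Ubn1 and Ubn2 encode its subunits, and each was depleted separately with a short hairpin RNA (shRNA). RNA-seq was done on 8 libraries of feeder-free E14 ESCs (strain labelled 12910la) in serum with LIF, 2 each labelled Control, Hira_KD, Ubn1_KD and Ubn2_KD. Per the labels, all cells received 1000 ng of the pSuper puro plasmid and, from 24 h later, 1 µg/ml puromycin for 3 days, and the medium was changed daily. The control cells are labelled wild type, and in the study's methods the control shRNA is directed at luciferase and puromycin has another dose. The depletions are partial and transient, in a pool of transfected cells, and which shRNA made each library was not given in the sources used here. Whether the 2 libraries of a group came from separate cultures is not stated either, so p-values measure the spread between these libraries, which may be technical.

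Each library held between 19710040 and 32706053 counts. Values below are CPM, the counts of a gene relative to a library size scaled by the trimmed mean of M-values (TMM), and a fold change is that of edgeR's quasi-likelihood fit on the raw counts. A gene was called where the Benjamini-Hochberg adjusted p over all genes tested was under 0.05, and "past 1.5-fold" adds the study's threshold on the size of the change. Hira stood at 10.8% of its control level in its own depletion (log2 fold change -3.22, SE 0.10, adjusted p = 5.57e-15), Ubn1 at 49% in its own (-1.03, SE 0.12, adjusted p = 4.02e-07) and Ubn2 at 53.8% in its own (-0.90, SE 0.10, adjusted p = 7.2e-07). The ESC markers Pou5f1, Sox2, Nanog and Zfp42 were at or above 351 CPM in every library. The 10 ESC markers together summed to 6890 and 7180 CPM in the controls, 6240 and 6400 in Hira_KD, 6340 and 6230 in Ubn1_KD and 5940 and 6120 in Ubn2_KD. Every knockdown sum was below both controls, but the sum weights the most abundant genes. Tdgf1, Dppa5a and Pou5f1 were below both controls in every knockdown library, while Sox2, Nanog, Esrrb and Tbx3 had higher means than control in each knockdown. The median log2 fold change of the 10 was -0.05 in Hira_KD, 0.04 in Ubn1_KD and -0.11 in Ubn2_KD. In Hira_KD 1 of the 10 was called higher and 3 lower (17.6% and 17.3% of all genes tested). In Ubn1_KD these were 1 and 2 (4.14% and 3.62%), and in Ubn2_KD 2 and 4 (20% and 19.1%). In bulk RNA, fewer cells of a type and less RNA per cell cannot be told apart.

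The promoters of 5 members are printed because these genes carry the largest differences below or the motifs of the cell-cycle factor E2F. Each is the RefSeq window of 250 bases before to 50 bases after the annotated start on GRCm38.p6, read 5′ to 3′ on the strand of the gene. Ezh2 lies at chr6:47594981-47595280 on the minus strand, Suz12 at chr11:79992856-79993155 on the plus strand, Phf19 at chr2:34913927-34914226 on the minus strand, Eed at chr7:89980927-89981226 on the minus strand and Ezh1 at chr11:101226414-101226713 on the minus strand. Capitals mark matches, on either strand, to an E2F motif (TTTCCCGC, TTTCGCGC, TTTGCCGC or TTTGGCGC) or to the CCAAT box (CCAAT).
Ezh2: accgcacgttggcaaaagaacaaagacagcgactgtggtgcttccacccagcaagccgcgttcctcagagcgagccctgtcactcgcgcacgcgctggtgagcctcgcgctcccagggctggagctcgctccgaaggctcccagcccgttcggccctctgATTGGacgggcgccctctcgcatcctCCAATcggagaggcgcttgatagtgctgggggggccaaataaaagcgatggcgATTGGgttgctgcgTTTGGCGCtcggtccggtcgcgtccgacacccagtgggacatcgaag
Suz12: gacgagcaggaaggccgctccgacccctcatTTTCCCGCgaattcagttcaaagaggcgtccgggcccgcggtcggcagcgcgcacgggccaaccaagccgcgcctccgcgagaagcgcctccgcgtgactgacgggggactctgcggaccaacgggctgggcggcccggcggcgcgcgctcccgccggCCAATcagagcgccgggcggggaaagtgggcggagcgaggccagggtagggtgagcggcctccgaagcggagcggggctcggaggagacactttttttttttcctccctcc
Phf19: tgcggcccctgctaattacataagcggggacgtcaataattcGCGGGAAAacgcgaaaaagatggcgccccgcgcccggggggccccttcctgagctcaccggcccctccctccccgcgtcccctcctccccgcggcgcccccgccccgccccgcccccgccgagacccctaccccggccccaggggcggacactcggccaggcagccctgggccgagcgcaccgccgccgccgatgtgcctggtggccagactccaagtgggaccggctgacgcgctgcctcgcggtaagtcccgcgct
Eed: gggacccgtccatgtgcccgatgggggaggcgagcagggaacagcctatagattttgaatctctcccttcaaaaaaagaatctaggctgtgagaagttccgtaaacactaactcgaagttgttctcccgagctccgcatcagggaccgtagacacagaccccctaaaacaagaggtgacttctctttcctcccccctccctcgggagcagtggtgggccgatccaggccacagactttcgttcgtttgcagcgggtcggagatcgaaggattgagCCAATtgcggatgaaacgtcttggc
Ezh1: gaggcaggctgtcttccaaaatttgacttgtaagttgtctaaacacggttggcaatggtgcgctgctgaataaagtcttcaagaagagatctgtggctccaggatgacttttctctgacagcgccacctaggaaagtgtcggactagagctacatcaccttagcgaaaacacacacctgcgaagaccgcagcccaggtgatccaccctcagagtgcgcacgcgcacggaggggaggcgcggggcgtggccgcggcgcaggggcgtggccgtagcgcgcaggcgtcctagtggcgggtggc
Of the 10 members, which have 14 windows in all, 3 held an E2F motif, namely Ezh2, Suz12 and Phf19, with 1 match each. That is 3 of 14 windows, against 2.26% of the 32851 mouse windows searched. A CCAAT box stood in 9 of the 14 windows, against 37.4% of all windows, and Mtf2 and Aebp2 held it in an alternative window alone. The Ezh1 window held neither. The 5 printed windows are CpG-rich, with 31 CpG dinucleotides in Ezh2, 41 in Suz12, 38 in Phf19, 17 in Eed and 23 in Ezh1, where the median of all windows was 7. Each E2F motif itself contains a CpG, and the share among windows of like CpG count was not taken. A match of letters is a description and not a site of binding.

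In control ESCs the 10 transcripts spanned a wide range. Compared per kilobase of exon, which is the scale on which genes can be set side by side, Rbbp7 was highest at 100 ± 4.77 CPM per kb (SD, n = 2). Mtf2 (52.1 ± 6.52), Jarid2 (50.3 ± 1.24), Eed (47.5 ± 0.151), Rbbp4 (44.1 ± 0.376) and Suz12 (38 ± 0.506) followed, then Ezh2 (21.8 ± 1.22), Aebp2 (9.29 ± 0.317), Ezh1 (8.35 ± 1.21) and Phf19 (3.91 ± 0.0371). The libraries of neighbours in this order overlapped between Mtf2 and Jarid2 and between Aebp2 and Ezh1, and were apart for the other pairs. Rbbp4 and Rbbp7 also belong to other complexes, so their RNA does not measure PRC2 alone. Per kb, Phf19 lay at the percentile 50.1 of expressed genes in control cells and Rbbp7 at 97.

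After Hira depletion, most core subunits had less RNA and 1 accessory subunit had more. Eed, Suz12, Ezh2, Rbbp4, Rbbp7 and Mtf2 fell, by between 17.5% and 28.9%, and Phf19 rose 1.66-fold, while Ezh1, Jarid2 and Aebp2 were not called. That makes 1 of 10 members called higher and 6 of 10 called lower, against 17.6% of all 19035 genes tested called higher and 17.3% called lower. Among the 7675 genes as abundant as the members (a mean of 21.4 to 542 CPM), 16.9% were called higher and 28.7% lower. None of the 6 falls was past 1.5-fold (5.4% of all genes tested were), and Phf19 was (10.8%). The median log2 fold change of the members was -0.30, beside 0.01 for all genes tested.

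After Ubn2 depletion members were called in both directions, in numbers near the shares over all genes. Ezh1 fell by 44.4% and Ezh2 by 14.8%, Rbbp7 fell by 13%, and Jarid2 (1.35-fold) and Aebp2 (1.2-fold) rose. With 2 members called higher and 3 lower, the counts stand beside 20% and 19.1% of 18219 genes tested, or 26.1% and 22.8% of genes of the members' abundance. Only Ezh1 among the 10 was past 1.5-fold, a threshold that 8.75% of all genes tested passed downward and 9.59% upward. The median of the members was -0.16, and that of all genes tested -0.00.

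After Ubn1 depletion 0 of 10 members were called by edgeR's quasi-likelihood test in either direction, where 4.14% of 18373 genes tested were called higher and 3.62% lower (1.53% and 1.56% past 1.5-fold). Among genes of the members' abundance, 6.25% were called higher and 4.44% lower. At an unadjusted p under 0.05 there were 4 members, Rbbp7 (-0.27), Suz12 (-0.25), Mtf2 (-0.25) and Aebp2 (0.19), and DESeq2 called 1, Rbbp7 (adjusted p = 0.0354). The share of all genes at that unadjusted threshold was not taken, so the count of 4 has no background to stand beside. The fitted log2 changes lay between -0.27 and 0.19, with a median of -0.13 beside -0.00 for all genes tested, and the 95% intervals below show which sizes of change these libraries allow.

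**Figure D1:**
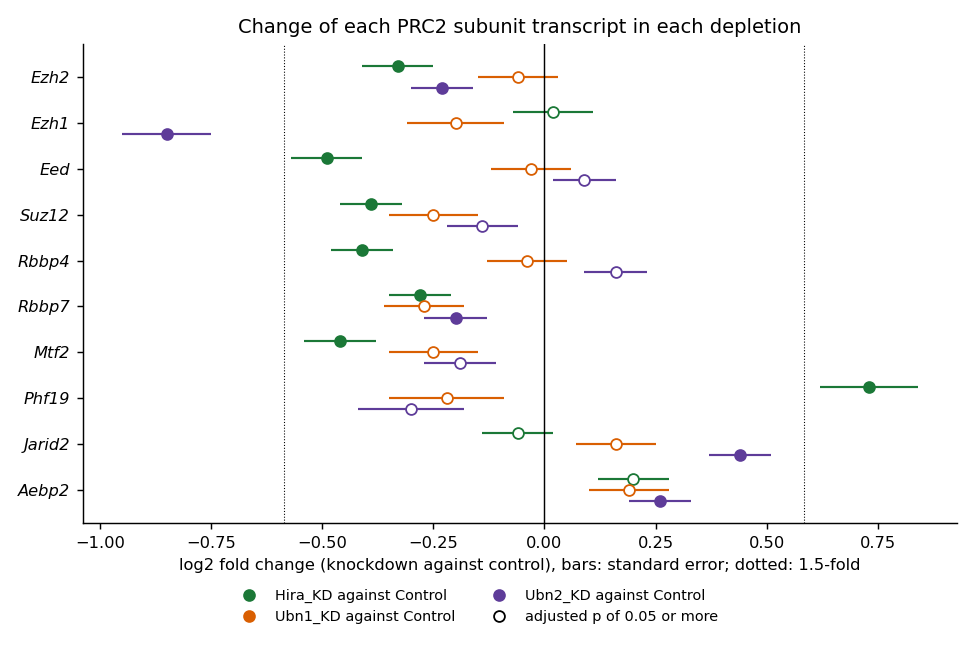
Fitted log2 fold change of each PRC2 subunit transcript (rows) in Hira_KD, Ubn1_KD and Ubn2_KD against the same control libraries; horizontal bars are standard errors, filled points have an adjusted p under 0.05 and dotted lines mark 1.5-fold. Phf19 in Hira_KD (0.73) and Ezh1 in Ubn2_KD (-0.85) are the points outside the dotted lines, and the Ubn1_KD points are all open.

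Of the catalytic genes, Ezh1 was called between depletions, and Ezh2 was not called between any pair of them by edgeR's quasi-likelihood test. Ezh2, the main methyltransferase of dividing cells, was at 140 and 151 CPM in the control libraries, at 118 and 117 after Hira depletion, at 144 and 136 after Ubn1 depletion and at 130 and 119 after Ubn2 depletion. Both Hira_KD and both Ubn2_KD libraries were below both controls, and the Ubn1_KD libraries overlapped them. Such separation is common. Of all genes tested, 31.4% lay below both controls and 35.6% above them in Hira_KD. The shares were 24.8% and 26.5% in Ubn1_KD and 34.9% and 34.7% in Ubn2_KD. They stand beside each statement below that sets both libraries of a knockdown beyond both controls. Shares over all genes were not taken for statements that set libraries apart from all the others. Ezh2 fell after Hira depletion (log2 fold change -0.33, SE 0.08, adjusted p = 0.002) and after Ubn2 depletion (-0.23, SE 0.07, adjusted p = 0.0117). The second call was lost without Control replicate 2 (adjusted p = 0.0979) or without Ubn2_KD replicate 2 (adjusted p = 0.169). Ubn1_KD differed from control by -0.06, with a 95% interval from -0.25 to 0.13. Between depletions, Ezh2 differed by -0.07 for Hira_KD against Ubn2_KD (interval -0.23 to 0.08), by -0.25 for Hira_KD against Ubn1_KD (adjusted p = 0.0615) and by -0.18 for Ubn2_KD against Ubn1_KD (adjusted p = 0.18). The second of these was called by DESeq2 (adjusted p = 0.0366), with all 8 libraries in one fit (adjusted p = 0.0232) and without Ubn1_KD replicate 2 (adjusted p = 0.0278), and the third without Ubn1_KD replicate 2 (adjusted p = 0.0435).

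Ezh1, the paralog that prevails in resting cells, was at 55.7 and 68.5 CPM in the controls, at 66.2 and 61.6 in Hira_KD, at 50.8 and 57.5 in Ubn1_KD and at 32.6 and 36.8 in Ubn2_KD. The Ubn2_KD libraries were apart from the other 6, and the Hira_KD and Ubn1_KD libraries each overlapped the controls. Ezh1 fell after Ubn2 depletion (-0.85, SE 0.10, adjusted p = 1.28e-06), and leaving out any 1 library kept the change between -0.99 and -0.69. Hira_KD differed from control by 0.02, with an interval from -0.17 to 0.22. Ubn1_KD differed by -0.20, with an interval from -0.42 to 0.01. Against each other, Hira_KD stood 1.85-fold above Ubn2_KD for Ezh1 (0.89, SE 0.09, adjusted p = 6.45e-06), and Ubn2_KD stood below Ubn1_KD (-0.65, SE 0.11, adjusted p = 0.000487). Hira_KD against Ubn1_KD was not called for Ezh1 (0.25, interval 0.04 to 0.46).

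**Figure D2:**
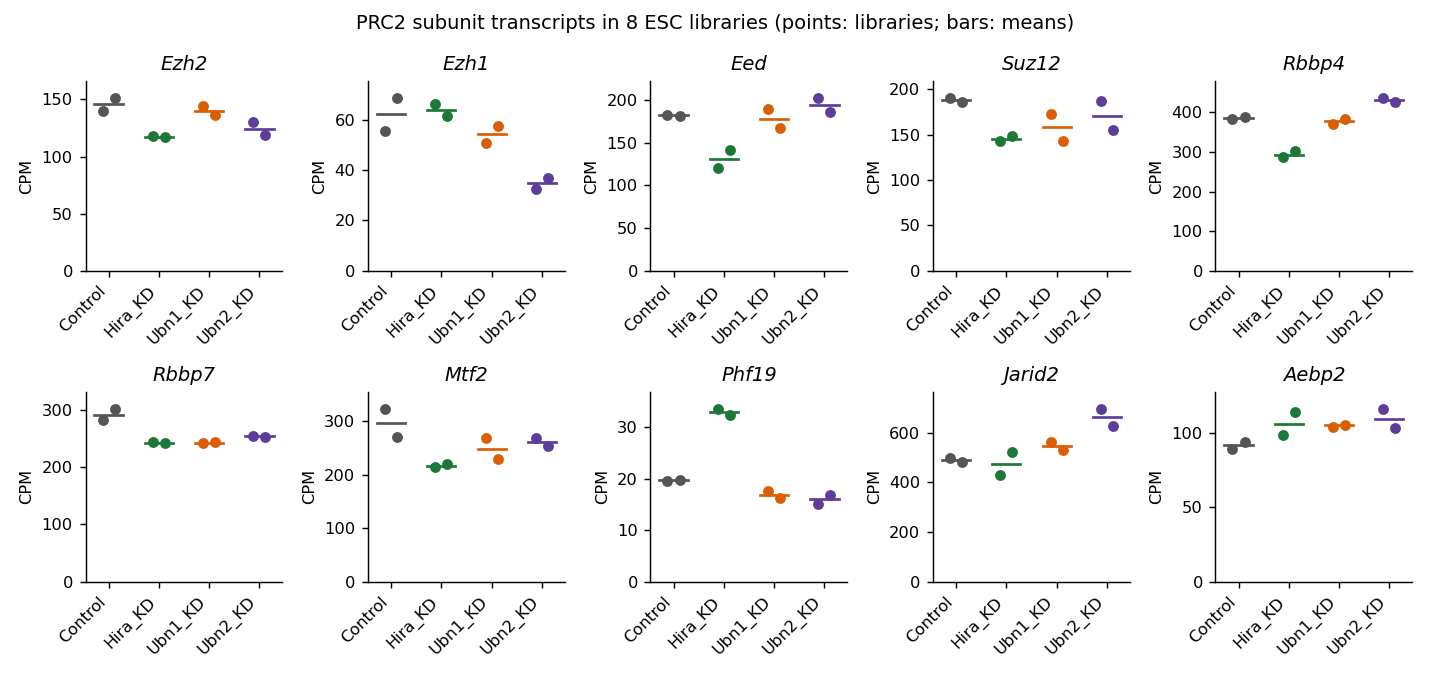
CPM of each PRC2 subunit (10 panels, each y axis from 0) in the 8 libraries grouped by condition; points are libraries and bars are group means of 2. Ezh1 is lowest in Ubn2_KD (mean 34.7) and Phf19 highest in Hira_KD (mean 33), with both libraries apart from the rest in each case.

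The core scaffold genes were lower after Hira depletion. Eed, the subunit that binds trimethylated lysine 27, was at 182 and 181 CPM in the controls, at 120 and 141 in Hira_KD, at 189 and 167 in Ubn1_KD and at 202 and 186 in Ubn2_KD. Both Hira_KD libraries were below the other 6. Eed fell after Hira depletion (-0.49, SE 0.08, adjusted p = 8.01e-05), and differed from control by -0.03 in Ubn1_KD (interval -0.22 to 0.16) and by 0.09 in Ubn2_KD (interval -0.05 to 0.23). Its level in Hira_KD was also below that in Ubn2_KD (-0.56, SE 0.08, adjusted p = 0.000156) and in Ubn1_KD (-0.44, SE 0.10, adjusted p = 0.00308). The last of these calls was lost without Hira_KD replicate 1, the lower of the pair (-0.32, adjusted p = 0.121).

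Suz12, which holds the complex together, was at 190 and 186 CPM in the controls, at 143 and 148 in Hira_KD, at 173 and 143 in Ubn1_KD and at 187 and 155 in Ubn2_KD. The Hira_KD libraries lay close together below both controls, while those of Ubn1_KD and Ubn2_KD were spread. Suz12 fell after Hira depletion (-0.39, SE 0.07, adjusted p = 0.000347), but Hira_KD directly against Ubn1_KD was not called (-0.11, interval -0.33 to 0.10). The values against control were -0.25 in Ubn1_KD (adjusted p = 0.112) and -0.14 in Ubn2_KD (adjusted p = 0.183). Without Ubn1_KD replicate 1 the former reached -0.40 (adjusted p = 0.000477), and without Ubn2_KD replicate 1 the latter reached -0.27 (adjusted p = 0.0119), so the higher library of each pair decided whether it was called. Hira_KD against Ubn2_KD gave -0.23 with an adjusted p of 0.0487, which was lost with DESeq2 (0.0572), with all 8 libraries in one fit (0.0617), without Hira_KD replicate 1 (-0.20, adjusted p = 0.0668) and without Ubn2_KD replicate 1 (-0.09, adjusted p = 0.574).

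The histone-binding paralogs are WD-repeat proteins that dock on histones H3 and H4, and both fell after Hira depletion. Rbbp4 was at 383 and 388 CPM in the controls, at 286 and 301 in Hira_KD, at 370 and 383 in Ubn1_KD and at 435 and 426 in Ubn2_KD. Its Hira_KD libraries were the lowest and its Ubn2_KD libraries the highest of the 8. Rbbp4 fell after Hira depletion (-0.41, SE 0.07, adjusted p = 0.00017) and stood lower in Hira_KD than in Ubn2_KD (-0.55, SE 0.08, adjusted p = 8.42e-05). In Ubn2_KD it differed from control by 0.16 (adjusted p = 0.0795, interval 0.01 to 0.30), which DESeq2 called (adjusted p = 0.0399). Hira_KD against Ubn1_KD gave -0.35 (adjusted p = 0.0107), and without Hira_KD replicate 1 that call was lost (adjusted p = 0.137).

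Rbbp7 was at 282 and 302 CPM in the controls, at 245 and 242 in Hira_KD, at 242 and 244 in Ubn1_KD and at 255 and 253 in Ubn2_KD. All 6 knockdown libraries were below both controls, and the controls were farther apart than the libraries of any knockdown. Of all genes tested, 31.4% in Hira_KD, 24.8% in Ubn1_KD and 34.9% in Ubn2_KD were likewise below both. Rbbp7 fell after Hira depletion (-0.28, SE 0.07, adjusted p = 0.00583) and after Ubn2 depletion (-0.20, SE 0.07, adjusted p = 0.0272). Its value in Ubn1_KD was -0.27 (adjusted p = 0.0639), which was called by DESeq2 (adjusted p = 0.0354) and with all 8 libraries in one fit (adjusted p = 0.0446). These comparisons share the control libraries, and without Control replicate 2 the call was lost for Hira_KD (-0.23, adjusted p = 0.0971) and for Ubn2_KD (-0.15, adjusted p = 0.2). Without either Ubn2_KD library the second call was lost too, at adjusted p = 0.0634 and 0.0797, and so it was with all 8 libraries in one fit (adjusted p = 0.0605). Between depletions, the differences in Rbbp7 were -0.06 for Hira_KD against Ubn2_KD (interval -0.21 to 0.10), 0.01 for Hira_KD against Ubn1_KD (interval -0.19 to 0.21) and 0.06 for Ubn2_KD against Ubn1_KD (interval -0.12 to 0.25).

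The accessory genes of PRC2.1 moved against each other after Hira depletion. Phf19, a Polycomb-like protein, was at 19.6 and 19.8 CPM in the controls, at 33.6 and 32.4 in Hira_KD, at 17.6 and 16.2 in Ubn1_KD and at 15.2 and 16.9 in Ubn2_KD. Its Hira_KD libraries were apart from and above the other 6. Phf19 rose after Hira depletion (0.73, SE 0.11, adjusted p = 2.74e-05), and every fit that left out 1 library gave between 0.70 and 0.75. Its value was -0.22 in Ubn1_KD (adjusted p = 0.334) and -0.30 in Ubn2_KD (adjusted p = 0.0599), so that Hira_KD stood 2.07-fold above Ubn2_KD (1.05, SE 0.11, adjusted p = 8.49e-06) and 1.97-fold above Ubn1_KD (0.98, SE 0.12, adjusted p = 2.14e-06).

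Mtf2, the more abundant of the pair per kb, was at 323 and 270 CPM in the controls, at 215 and 220 in Hira_KD, at 268 and 229 in Ubn1_KD and at 269 and 253 in Ubn2_KD. The control libraries differed by more than those of any knockdown, and all knockdown libraries were below both. Mtf2 fell after Hira depletion (-0.46, SE 0.08, adjusted p = 0.000193), between -0.59 and -0.34 with any 1 library left out. Hira_KD directly against Ubn1_KD was not called (-0.19, interval -0.40 to 0.03). The values against control were -0.25 in Ubn1_KD (adjusted p = 0.119) and -0.19 in Ubn2_KD (adjusted p = 0.0702). Without Control replicate 2, the lower control, the Ubn2_KD value was -0.31 and was called (adjusted p = 0.00345). Without Ubn1_KD replicate 1, the Ubn1_KD value was -0.38 and was called (adjusted p = 0.000547). Hira_KD was below Ubn2_KD (-0.25, SE 0.07, adjusted p = 0.0152), but not without Ubn2_KD replicate 1 (-0.22, adjusted p = 0.131).

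The accessory genes of PRC2.2 were higher after Ubn2 depletion. Jarid2, which tethers PRC2 to chromatin and stimulates it, was at 497 and 480 CPM in the controls, at 428 and 522 in Hira_KD, at 561 and 530 in Ubn1_KD and at 695 and 626 in Ubn2_KD. The Ubn2_KD libraries were above the other 6, and the Hira_KD libraries lay on either side of the controls. Jarid2 rose after Ubn2 depletion (0.44, SE 0.07, adjusted p = 7.49e-05) and stood lower in Hira_KD than in Ubn2_KD (-0.47, SE 0.10, adjusted p = 0.00168). In Hira_KD it differed from control by -0.06 (interval -0.23 to 0.12), and without Hira_KD replicate 2 by -0.21 (adjusted p = 0.0435). In Ubn1_KD it differed by 0.16 (interval -0.03 to 0.34). Ubn2_KD against Ubn1_KD gave 0.27 (adjusted p = 0.0649), which DESeq2 called (adjusted p = 0.0241).

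Aebp2, a zinc finger protein that binds DNA and stabilises the complex, was at 89.3 and 93.7 CPM in the controls, at 98.5 and 114 in Hira_KD, at 104 and 105 in Ubn1_KD and at 116 and 103 in Ubn2_KD. All 6 knockdown libraries were above both controls. Aebp2 rose after Ubn2 depletion (0.26, SE 0.07, adjusted p = 0.00913), a call that was lost without Ubn2_KD replicate 1 (0.17, adjusted p = 0.198). It differed by 0.20 in Hira_KD (adjusted p = 0.0696) and by 0.19 in Ubn1_KD (adjusted p = 0.218). Hira_KD became called without its replicate 1 (0.30, adjusted p = 0.0109) and when only genes with 10 or more counts in each library were kept (adjusted p = 0.0455). No pair of depletions differed by a call in Aebp2, with an interval from -0.22 to 0.15 for Hira_KD against Ubn2_KD.

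Counted over all 10 members, Hira_KD stood higher than Ubn2_KD for 2 (18.6% of 18563 genes tested) and lower for 5 (17.2%). It stood higher than Ubn1_KD for 1 (14.2% of 18819) and lower for 2 (10.2%). Among genes of the members' abundance, 16.3% were higher and 28.1% lower in Hira_KD than in Ubn2_KD. For Hira_KD against Ubn1_KD these shares were 10.8% and 18.1%, and for Ubn2_KD against Ubn1_KD 9.71% and 10.1%. Ubn2_KD was called against Ubn1_KD for 0 members upward by edgeR's quasi-likelihood test (8.6% of 18205), where Jarid2 was the member with an unadjusted p under 0.05 and the 1 called by DESeq2, and for 1 downward (7.98%). Past 1.5-fold in Hira_KD against Ubn2_KD were Phf19 and Ezh1, both higher (12% of genes tested were higher and 5.61% lower by this threshold). In Hira_KD against Ubn1_KD it was Phf19, higher (9.52% and 3.16%), and in Ubn2_KD against Ubn1_KD it was Ezh1, lower (4.61% higher and 4.09% lower). A pair of depletions compared directly does not involve the control libraries.

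The proportions of alternative subunits were also compared at the RNA level. Per kb of exon, Ezh1 made up 26.4% and 28.9% of the summed Ezh1 and Ezh2 RNA in the controls, 33.6% and 32.1% in Hira_KD, 24% and 27.5% in Ubn1_KD and 18.4% and 21.8% in Ubn2_KD. The Hira_KD libraries were above and the Ubn2_KD libraries below both controls. Rbbp7 made up 69.4% ± 0.827 (SD, n = 2) of Rbbp4 plus Rbbp7 in the controls, 71.4% ± 0.938 in Hira_KD, 66% ± 0.424 in Ubn1_KD and 64% ± 0.209 in Ubn2_KD. Jarid2 and Aebp2 made up 51.6% ± 2.51 of the 4 accessory members in the controls, 57.1% ± 3.01 in Hira_KD, 58.7% ± 1.81 in Ubn1_KD and 61.8% ± 0.978 in Ubn2_KD, with every knockdown library above both controls. The control share depends on Mtf2, which was at 323 and 270 CPM there. The 4 members leave out the PRC2.1 partners Epop and Phf1, both of which rose in Ubn2_KD. With 2 libraries against 2, the exact permutation test (two-sided) cannot go below p = 0.333, and 8 of the 9 comparisons of a share with control reached that value. The exception was the Ezh1 share in Ubn1_KD (p = 0.667, exact). RNA shares are not shares of protein or of assembled complexes.

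**Figure D3:**
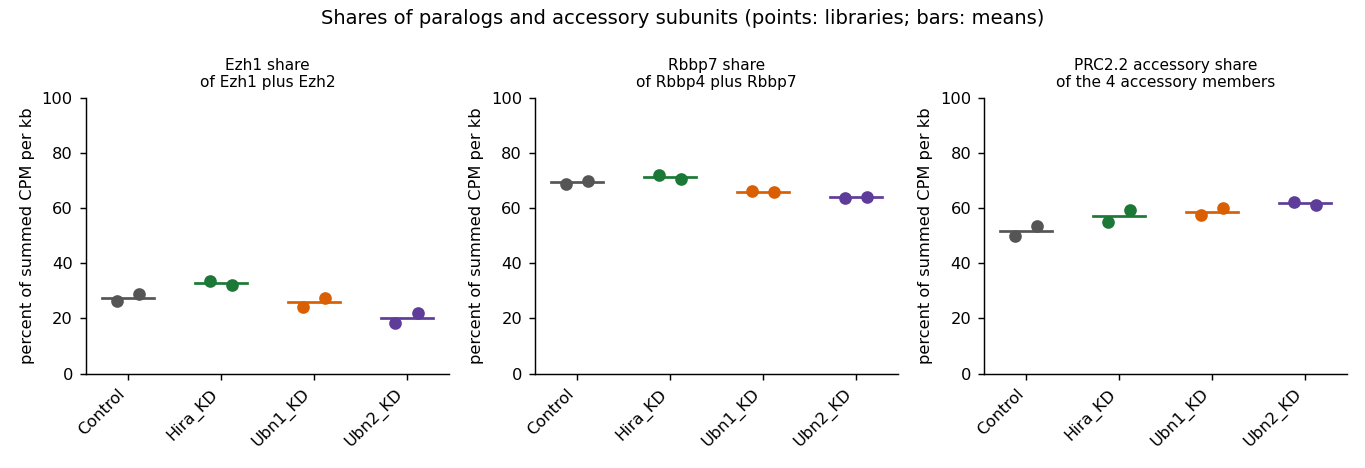
Shares, in percent of summed CPM per kb of exon, of Ezh1 in Ezh1 plus Ezh2, of Rbbp7 in Rbbp4 plus Rbbp7 and of Jarid2 plus Aebp2 in the 4 accessory members; points are the 2 libraries of a group and bars their mean. The Ezh1 share runs from a mean of 20.1% in Ubn2_KD to 32.8% in Hira_KD, and the accessory share is lowest in the controls.

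Other genes of the Polycomb system were taken as lists. Of 5 further PRC2 partners measured, Hira_KD had 1 called, higher (17.6% of all genes tested), and Ubn2_KD had 2 higher and 1 lower (20% and 19.1%). Epop, an elongin-binding partner of PRC2.1, rose after Ubn2 depletion from 188 ± 3.5 to 288 ± 2.01 CPM (SD, n = 2; 0.61, SE 0.07, adjusted p = 4.68e-07). Phf1, the remaining Polycomb-like gene, rose there from 8.31 ± 1.13 to 13.8 ± 2.17 CPM (0.73, SE 0.16, adjusted p = 0.00121). AU022751, the mouse counterpart of the PRC2 inhibitor EZHIP, rose after Hira depletion from 1.16 ± 0.354 to 2.43 ± 0.286 CPM (1.09, SE 0.34, adjusted p = 0.0174). In Ubn1_KD 1 partner was called higher, Epop (0.43, adjusted p = 0.0105).

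PRC1 was counted over 30 genes, all of which were tested. After Hira depletion 9 were called higher and 4 lower (17.6% and 17.3% of all genes tested), with a median log2 fold change of 0.15 beside 0.01 for all genes. After Ubn2 depletion 11 were called higher and 2 lower (20% and 19.1%), with a median of 0.04 beside -0.00, and after Ubn1 depletion 2 higher and 1 lower (4.14% and 3.62%). Bmi1, a PCGF subunit of canonical PRC1, was called in each depletion, at 4.95 ± 0.643 CPM in the controls (SD, n = 2), 8.82 ± 1.87 in Hira_KD (0.84, SE 0.20), 8.65 ± 1.76 in Ubn1_KD (0.81, SE 0.20) and 15.9 ± 0.514 in Ubn2_KD (1.70, SE 0.16), with adjusted p = 0.00277, 0.0113 and 6.86e-08. After Hira depletion Phc2, a polyhomeotic subunit (0.63, SE 0.10), and Yaf2, a RYBP paralog (0.61, SE 0.17), rose and Scml2 (-0.88, SE 0.32) fell. After Ubn2 depletion Bcor, of the PCGF1 form of PRC1 (1.09, SE 0.10), and Cbx8, a chromobox reader (1.35, SE 0.42), rose and Pcgf5 (-0.66, SE 0.16) fell. Each was also called in the same direction in Hira_KD, Bcor at 0.40 (SE 0.11), Cbx8 at 1.14 (SE 0.43) and Pcgf5 at -0.53 (SE 0.18). Bcor was called higher in Ubn1_KD too (0.37, SE 0.11). Cbx8 is a low transcript, at 0.657 ± 0.173 CPM in the controls and 1.64 ± 0.154 in Ubn2_KD. The Hira_KD counts in PRC1 moved to 5 higher without Control replicate 1 or without Hira_KD replicate 1.

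The list of histone H3 lysine 27 demethylases and Trithorax genes, whose products oppose Polycomb silencing, had 24 tested genes. After Ubn2 depletion 9 were called higher and 1 lower (median 0.16), after Hira depletion 3 higher and 2 lower (median 0.02), and after Ubn1 depletion 1 was called, higher (median 0.14). Of all genes tested, 20% and 19.1% were called higher and lower in Ubn2_KD, 17.6% and 17.3% in Hira_KD and 4.14% and 3.62% in Ubn1_KD. Without Hira_KD replicate 1 the 3 became 9, and without Control replicate 2 they became 1. Setd1b, a lysine 4 methyltransferase, rose from 31.2 ± 1.75 CPM in the controls to 76.7 ± 9.2 in Ubn2_KD (1.30, SE 0.09, adjusted p = 1.1e-09) and 52.8 ± 4.01 in Ubn1_KD (0.76, SE 0.11, adjusted p = 2.08e-05). It was the single gene of the list past 1.5-fold in each of those depletions, and none was in Hira_KD.

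Rbbp4 and Rbbp7 also serve the CAF-1, NuRD, Sin3, NURF, HAT1, MuvB and CUL4 complexes, of which 27 other genes were tested. After Hira depletion 6 were called higher and 8 lower (median -0.03), after Ubn2 depletion 8 higher and 4 lower (median 0.10), and after Ubn1 depletion 1 was called, lower (median 0.04). The shares of all genes tested were 17.6% higher and 17.3% lower in Hira_KD, 20% and 19.1% in Ubn2_KD and 4.14% and 3.62% in Ubn1_KD. Without Control replicate 1 the Hira_KD counts were 3 and 5. After Hira depletion Dtl, a ubiquitin ligase adaptor of DNA replication, fell from 121 ± 1.52 to 65.2 ± 6.62 CPM (-0.91, SE 0.08, adjusted p = 7e-08), and Chaf1b, a CAF-1 subunit, fell from 82 ± 0.951 to 53.5 ± 2.56 CPM (-0.63, SE 0.08, adjusted p = 4.99e-06). Smarca1, the NURF ATPase (0.93, SE 0.12, adjusted p = 3.55e-06), and Mbd2, a NuRD subunit (0.71, SE 0.12, adjusted p = 0.000113), rose in the same libraries. After Ubn2 depletion Lin37 of MuvB rose (0.62, SE 0.13, adjusted p = 0.000843).

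Genes known as Polycomb targets in ESCs were followed as a list of 98 developmental regulators. Summed over all 98, their RNA was at 112 and 119 CPM in the controls, 160 and 165 in Hira_KD, 114 and 125 in Ubn1_KD and 167 and 159 in Ubn2_KD. The Hira_KD and Ubn2_KD sums were above both controls, and 1 Ubn1_KD sum lay between them. Most of the list stayed near zero, with 69 genes under 1 CPM in both control libraries, 59 in Hira_KD, 68 in Ubn1_KD and 61 in Ubn2_KD. The filter on low counts kept 56, 38 and 49 of the 98 in the 3 comparisons, and it keeps a low gene most easily where 1 group is high, so the counts among them are a description. Of these, 22 were called higher and 3 lower in Hira_KD, 2 and 3 in Ubn1_KD and 16 and 1 in Ubn2_KD. Genes of like abundance (between the quartiles of the tested targets) were called higher and lower at 15.6% and 4.11% in Hira_KD, 1.95% and 2.61% in Ubn1_KD and 12.1% and 11.8% in Ubn2_KD. The DESeq2 Wald test called 12 higher in Hira_KD and 8 in Ubn2_KD, and 14 were called in Hira_KD without Control replicate 1.

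Among the targets, Meis2, a TALE homeobox factor, rose from 2.64 ± 0.263 CPM in the controls to 13.7 ± 1.74 in Ubn2_KD (2.38, SE 0.19, adjusted p = 4.62e-09) and 6.57 ± 0.443 in Ubn1_KD (1.32, SE 0.23, adjusted p = 0.000326). Tbx20, a T-box factor of the heart, rose in Hira_KD from 1.16 ± 0.132 to 5.09 ± 1.25 CPM (2.08, SE 0.29, adjusted p = 1.4e-05). En1, an engrailed homeobox gene at 0.143 ± 0.0645 CPM in the controls, near the level of 3 counts, was at 1.85 ± 0.812 in Hira_KD and 1.61 ± 0.391 in Ubn2_KD and was called in both. Wnt6 rose in Ubn2_KD (1.15, SE 0.17) and Ubn1_KD (1.11, SE 0.20). Ascl2, a trophoblast regulator, fell in all 3 depletions, from 4.62 ± 2.27 CPM in controls that differed widely to 1.73 ± 0.0424 in Hira_KD, 1.89 ± 0.862 in Ubn1_KD and 0.755 ± 0.158 in Ubn2_KD. Pou3f1 (-0.91, SE 0.23) fell in Hira_KD, and Neurod1 (-0.94, SE 0.24) and Gata6 (-1.10, SE 0.30) fell in Ubn1_KD. In Hira_KD all 3 falls of the list were lost without Control replicate 2.

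**Figure D4:**
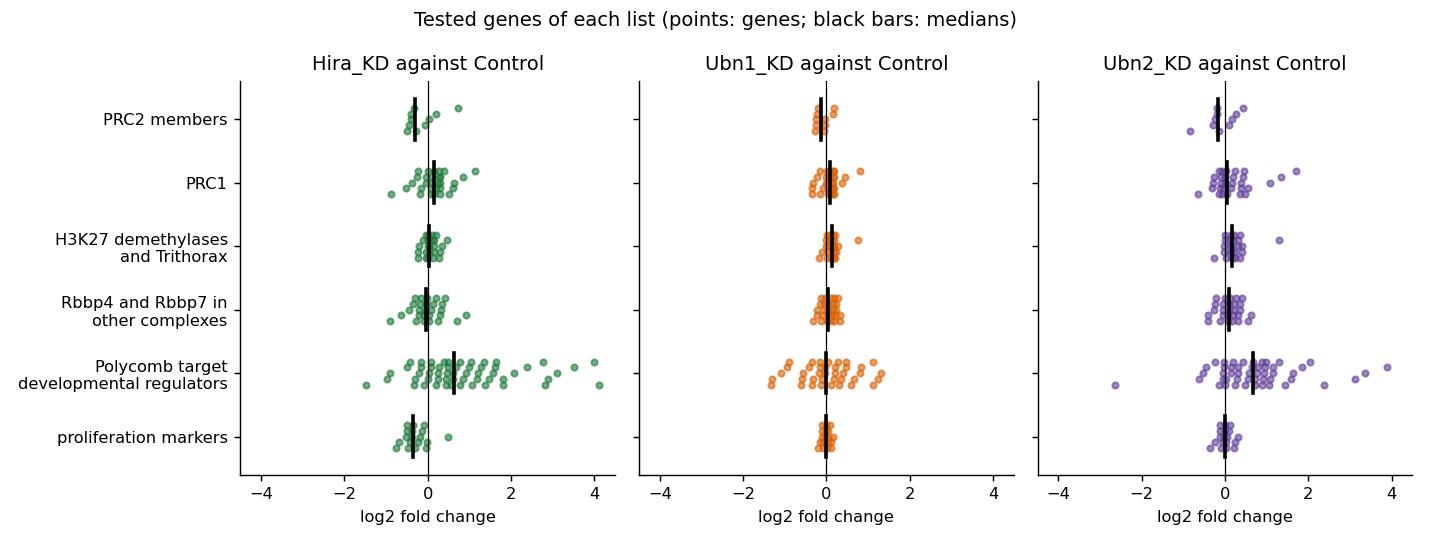
Fitted log2 fold change of each tested gene (points) of the PRC2 members and 5 lists (rows) in the 3 depletions (panels); black bars are medians and the vertical spread within a row has no meaning. The Polycomb targets have medians of 0.64 in Hira_KD, -0.00 in Ubn1_KD and 0.68 in Ubn2_KD among those that passed the filter. That filter keeps a low gene most easily where 1 group is high, so these medians are a description. Tested genes of like abundance have medians of 0.16, -0.03 and -0.03 in the same order. The proliferation markers have a median of -0.36 in Hira_KD.

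Markers of proliferation and of other cells moved with some of these results. The 18 proliferation genes summed to 6040 and 6000 CPM in the controls, 4390 and 4710 in Hira_KD, 5890 and 6110 in Ubn1_KD and 5850 and 5800 in Ubn2_KD. In Hira_KD, where Eed, Suz12, Ezh2, Rbbp4, Rbbp7 and Mtf2 fell, 12 of the 18 were called lower and 1 higher (median -0.36), among them Mcm6 (-0.76, SE 0.07, adjusted p = 1.39e-07) and Pcna (-0.69, SE 0.07, adjusted p = 5.8e-07), while Mki67 differed by -0.01. The median was -0.01 in Ubn1_KD and in Ubn2_KD, where 2 were called each way. The 21 markers of differentiated or other cells summed to 426 and 465 CPM in the controls, 753 and 787 in Hira_KD, 519 and 584 in Ubn1_KD and 607 and 575 in Ubn2_KD, with 10 called in Hira_KD, all higher, 5 higher and 2 lower in Ubn1_KD, and 8 higher and 2 lower in Ubn2_KD. The shares of all genes called higher and lower were 17.6% and 17.3%, 4.14% and 3.62%, and 20% and 19.1% in that order. Krt8 (-0.59, SE 0.12) and Krt18 (-0.92, SE 0.19) were the 2 that fell in Ubn2_KD. Vim (0.88, SE 0.08), Tubb3 (0.86, SE 0.08) and Krt8 (1.12, SE 0.11) had the smallest adjusted p in Hira_KD, Otx2 (0.73, SE 0.12) and Tubb3 (0.62, SE 0.10) were among those of Ubn1_KD, and Actc1 was at 85.3 and 49.7 CPM in Ubn2_KD against 0.0974 and 0.189 in the controls. Afp and Ttr, markers of visceral endoderm, were at or near 0 in all libraries. Of the ESC markers Tdgf1 (-0.78, SE 0.07) and Dppa5a (-0.59, SE 0.07) fell and Tbx3 rose (0.71, SE 0.08) in Ubn2_KD, and none was past 1.5-fold in the other depletions. The part of proliferation or of other cells in the PRC2 values was not tested.

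Some reads could belong to other genes. The transcripts of paralogous members are distinct, with a longest exact run in common of 17 bases between Ezh1 and Ezh2, 20 between Rbbp4 and Rbbp7 and 14 between Mtf2 and Phf19. The strand setting of the counting is not given in the sources used here, so reads cannot be told apart where a gene on the other strand overlaps exons, which concerns 9.1% of Rbbp4 exon bases for Gm26722 and 8.94% for Sync, 6.93% of Mtf2 (Tmed5), 6.82% of Eed (E230029C05Rik), 5.98% of Rbbp7 (Txlng), 3.6% of Suz12 (Gm26563) and 2.61% of Ezh2 (Gm26625). Of the runs of 50 bases in Rbbp7 transcripts, 6.97% also occur in Gm6382. No other symbol in the tables carries the name of a member.

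Some genes had a pattern across the 6 knockdown libraries close to that of a catalytic subunit. By the root mean square difference of log2 CPM minus the control mean, among 10355 genes with a mean of at least 10 CPM, Anapc4 (0.0375), Wwc2 (0.0407) and Gm26566 (0.0433) were nearest to Ezh2. Fads6 (0.0704), Cdc14b (0.0881) and A930037H05Rik (0.0945) were nearest to Ezh1. All values share the control mean and the libraries, and no test was made.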

How the data were processed

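The authors trimmed reads with Trim Galore, used STAR for alignment to GRCm38 and featureCounts for counting by gene (versions and strand setting not given in the sources used here), and deposited raw counts, without normalization, in 3 tables that each hold 1 depletion beside the same 2 control libraries (0 differing values, used once). Of 55418 gene symbols, 55303 matched a single gene of GENCODE M21, whose exon lengths gave CPM per kb.

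Each pair of groups was fitted on the counts with edgeR 4.0.16 in R 4.3.3 (TMM, factors 0.97 to 1.06 over the 8 libraries, filterByExpr, quasi-likelihood test, Benjamini-Hochberg adjustment over all genes tested). The SE is the log2 change over the root of its F statistic, and intervals are at 95%. Depth limits precision by counting error only, and 3 counts equal 0.0908 to 0.153 CPM. The models were run on data simulated for Hira_KD against control, with the same dispersion for every gene and changes of 1.5-fold or more. That run does not show how well smaller changes are recovered. Alternatives used DESeq2 1.42.0, its size factors, other filters, all 8 libraries, a replicate block and each library left out. A block with crossed numbers, and the shares called among genes of like abundance, were added after seeing the data.

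Named genes are the members, each depleted gene in its own depletion, up to 3 genes in each direction per list with the smallest adjusted p among those past 1.5-fold, and the 3 nearest patterns to Ezh2 and Ezh1. Other genes named are fixed markers or were chosen after their values were seen. They are Pou5f1, Sox2, Nanog, Esrrb, Zfp42, Mki67, Afp, Ttr and, in Ubn1_KD, Epop. Tdgf1, Dppa5a, Tbx3, Bcor, Cbx8 and Pcgf5 outside Ubn2_KD belong with them. Some genes that the rule names are not reported here. Members and lists were chosen with earlier results of these data known. Protein sequences were not used here. Figures used matplotlib 3.10.9 in Python 3.11.15.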

Additional observations from a re-analysis of the deposited data

Results flagged for a closer look

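Both genes with a difference past 1.5-fold stood out because the depletions differed from each other in a direct test of the difference, without the control libraries. Ezh1 was 0.89 higher on the log2 scale in Hira_KD than in Ubn2_KD (adjusted p = 6.45e-06, edgeR's quasi-likelihood test) and -0.65 in Ubn2_KD against Ubn1_KD (adjusted p = 0.000487), with both Ubn2_KD libraries below all others. Phf19 was 1.05 higher in Hira_KD than in Ubn2_KD (adjusted p = 8.49e-06) and 0.98 higher than in Ubn1_KD (adjusted p = 2.14e-06), with both Hira_KD libraries above all others.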

How the results depend on the processing

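With each library left out in turn, and under every alternative run, the rise of Phf19 in Hira_KD, the fall of Ezh1 in Ubn2_KD and the differences of these genes between depletions were called in the same direction, and so were the falls of Eed, Suz12, Ezh2, Rbbp4 and Mtf2 in Hira_KD and the rise of Jarid2 in Ubn2_KD, except that the last 6 were not past 1.5-fold. With 1.5-fold added, the members called lower became 0 of 6 in Hira_KD against control, 1 of 3 in Ubn2_KD against control, 0 of 5 in Hira_KD against Ubn2_KD and 0 of 2 in Hira_KD against Ubn1_KD, and those called higher in Ubn2_KD against control became 0 of 2. By the same threshold the genes of all other lists together went from 32 to 8 lower in Hira_KD, from 8 to 3 lower in Ubn1_KD, and from 57 to 29 higher and 17 to 6 lower in Ubn2_KD. DESeq2's Wald test called 33 list genes higher in Hira_KD in place of 51, and 3 lower in Ubn1_KD in place of 8. It also called 1 member lower in Ubn1_KD against control and 1 higher in Ubn2_KD against Ubn1_KD, where edgeR called 0. All 8 libraries in one fit gave 1 for each of these 2 counts, and no filter on low counts gave 1 for the second. A floor of 10 counts in each library gave 2 members higher in Hira_KD. Apart from fewer genes and libraries entering a fit, the cause was not tested. Scalings moved the median of all genes by at most 0.03 on the log2 scale.

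Leaving out libraries gave these lowest and highest counts of members called. Against control there were 1 to 2 higher in Hira_KD (2 without Hira_KD replicate 1), 0 to 3 lower in Ubn1_KD (3 without Ubn1_KD replicate 1, 1 without replicate 2), and 1 to 2 higher and 1 to 4 lower in Ubn2_KD (1 higher without replicate 1, 1 lower without replicate 2). Hira_KD against Ubn2_KD gave 3 to 5 lower (3 without Ubn2_KD replicate 1). Hira_KD against Ubn1_KD gave 1 to 2 higher and 0 to 4 lower (2 and 4 without Ubn1_KD replicate 2, 0 lower without Hira_KD replicate 1). Ubn2_KD against Ubn1_KD gave 0 to 2 higher (2 without Ubn1_KD replicate 1) and 1 to 2 lower (2 without Ubn1_KD replicate 2). Of the other lists, 21 to 35 genes were lower in Hira_KD (21 without Control replicate 2), and in Ubn1_KD 7 to 15 were higher and 2 to 10 lower (7 and 2 without Control replicate 2, 3 lower without Control replicate 1). A group left with 1 library is assumed to vary like the other. The calls over all genes also changed with the library left out, and these counts of members are not set beside them.

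Signs turned for members that were not called. Leaving out libraries, these spanned -0.12 to 0.18 for Ezh1 and -0.21 to 0.08 for Jarid2 in Hira_KD against control, -0.14 to 0.06 for Eed in Ubn1_KD against control, and -0.14 to 0.06 for Aebp2 in Hira_KD against Ubn2_KD. In Hira_KD against Ubn1_KD they spanned -0.25 to 0.01 for Suz12, -0.08 to 0.13 for Aebp2 and -0.02 to 0.02 for Rbbp7. In Ubn2_KD against Ubn1_KD they spanned -0.03 to 0.26 for Suz12, -0.05 to 0.18 for Mtf2 and -0.03 to 0.16 for Aebp2. For Hira_KD against Ubn1_KD, DESeq2 gave -0.00 for Aebp2 and -0.02 for Rbbp7, its size factors in edgeR gave -0.01 for Rbbp7, and no filter gave -0.00 for Rbbp7.

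The labels number the libraries of each group 1 and 2 but do not say that a number marks a shared day or batch. Across genes, the residuals of libraries that share a number correlated at -0.138 to 0.13 over the 6 pairs of groups, so the numbers were not taken to pair the libraries. With the replicate block, 2 members were called higher in Hira_KD against control (Phf19, and Aebp2 at 0.20, adjusted p = 0.0163), 3 lower in Ubn1_KD against control (Suz12, Mtf2 and Rbbp7) and 1 higher in Ubn2_KD against Ubn1_KD (Jarid2). The block also raised the calls over all genes. Those higher and lower went from 3357 and 3287 to 3954 and 3895 in Hira_KD against control. They went from 760 and 666 to 1239 and 1127 in Ubn1_KD against control, and from 1566 and 1453 to 2143 and 1959 in Ubn2_KD against Ubn1_KD. Suz12 in Hira_KD against Ubn2_KD was not called with the block (adjusted p = 0.0615). With the block and all 8 libraries, the counts for Ubn1_KD against control and Ubn2_KD against Ubn1_KD were 1 and 1, and Rbbp7 in Ubn2_KD against control was not called (adjusted p = 0.061), while Ezh2 in Hira_KD against Ubn1_KD was (adjusted p = 0.0217). A block with crossed numbers, chosen after seeing the correlations below -0.1, gave 2 members higher in Hira_KD against Ubn1_KD.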
